A study of Mus musculus with 12 samples.

Results

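The 10 genes of a list that marks Kupffer cells, the resident macrophages of the liver, were followed through the liver RNAseq of 12 adult male mice. They were taken by symbol from the table of transformed values (Clec4f, Cd5l, Vsig4, Marco, C1qa, C1qb, C1qc, Csf1r, Cd68 and Lyz2) and joined by Ensembl identifier to the expected counts, the read counts per gene that RSEM estimates. All 10 were among the 51912 genes of the count table, the 17859 genes with transformed values and the 8594 genes with enough counts to be tested. The mice formed 4 groups of 3: wild-type mice given corn oil (WT corn oil), wild-type mice given CITCO (WT CITCO), mice humanised for CAR and PXR given CITCO (hCAR/hPXR CITCO), and mice without mouse Car and Pxr that carry human PXR, given CITCO (Car KO/hPXR CITCO). CITCO, an activator of the human constitutive androstane receptor CAR, was injected into the peritoneum daily for 4 days at 10 mg/kg according to the labels (10 or 50 mg/kg in the methods), and livers were taken on day 5. The modified lines had a C57BL/6NTac background, and corn oil libraries of the humanised lines were not analysed here, so that genotype and response to CITCO cannot be told apart in them. Counts of the mouse receptor genes followed the labels, with Nr1i2 (PXR) at 100 to 199 counts in the WT libraries and 0 to 2 in the humanised ones, and Nr1i3 (CAR) at 104 to 287 against 0 to 6.

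Kupffer cells line the sinusoids, where they clear particles, microbes and dying blood cells from portal blood, and they depend on signalling through CSF1R for survival. They carry scavenger receptors (Marco), a lectin that is a hallmark of the mouse cell (Clec4f) and a receptor for complement-coated particles (Vsig4), and they secrete Cd5l and the C1q complement protein. In liver, CAR and PXR act mainly in hepatocytes, which make up most of the RNA of a whole liver. In whole-liver RNA, fewer Kupffer cells and less RNA per cell cannot be told apart.

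The libraries held 1167008 to 2341557 counts, of which the 10 genes together took between 0.0339% and 0.0599%, or 519 to 1205 counts a library. In CPM (counts scaled to a common library size, after edgeR's TMM method) 3 counts were worth 1.33 to 2.48, so that the lowest gene, Cd68 with 6 to 20 counts a library, was measured far less precisely than Cd5l with 178 to 495. Each pair of replicates differed by more than sampling noise, with chi-square per degree of freedom from 4.85 to 21.0. WT CITCO replicate 3 and hCAR/hPXR CITCO replicate 3 stood apart from the other replicates of their groups, with 14.5 to 21.0 in their pairs, and each comparison they enter is also given without both. The series' design gives 3 mice a group, and each library was taken as 1 mouse.

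Markers of other cells were counted beside the gene group. Clec4f, itself 1 of the 10 genes, was counted in all 12 libraries (37 to 117 counts). Other cells were counted too, with sums of 394 to 872 counts a library for 12 sinusoidal endothelial genes. The dendritic list summed to 59 to 171 counts and the B cell list to 26 to 63. Of 9 monocyte genes none had enough counts to be tested, and their sum was 12 to 39 counts a library. Of 10 neutrophil genes, 8 were found by symbol among the transformed values, of which 6 were at 0 in at least 6 libraries, and only S100a8 and S100a9 were tested.

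Positions are given from GENCODE M21 on GRCm38. The libraries read the 3' ends of transcripts, so most reads of a gene fall in its last exon. Marco spans chr1:120474538-120505024 on the minus strand in 17 exons, and Cd5l spans chr3:87357881-87371073 on the plus strand in 6. The 3 C1q chains are neighbours on chromosome 4, all on the minus strand: C1qb (136880129 to 136886187), C1qc (136889804 to 136893065) and C1qa (136895917 to 136898803) fill 18675 bases with gaps of 3616 and 2851 bases. Clec4f lies at chr6:83644542-83656187 on the minus strand, Vsig4 at chrX:96247203-96293438 on the minus strand, Cd68 at chr11:69664213-69666153 on the minus strand and Lyz2 at chr10:117277331-117282321 on the minus strand. The last exon of Csf1r shares 873 bases with Hmgxb3 on the opposite strand, and the expected counts of Csf1r were not whole numbers in 12 of 12 libraries, so its values are uncertain. Lyz1, the close relative 5475 bases from Lyz2, was at 0 counts in all 12 libraries, although reads that fit both genes may have been assigned to one of them.

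Promoter sequence was matched in RefSeq (GRCm38.p6) for 8 of the 10 genes. Those of Marco and Cd5l are shown for their values below, those of C1qc and C1qb as neighbours whose values went together with Marco, and that of Clec4f as a gene that did not. Each line gives up to 250 bases before the RefSeq start, 5′ to 3′ on the strand of the gene, without bases that GENCODE M21 places in the gene. Capitals mark GAGGAA, the core letters that the macrophage factor PU.1 binds, or TTCCTC, the same letters on the other strand.
Marco (chr1:120505025-120505274, minus strand): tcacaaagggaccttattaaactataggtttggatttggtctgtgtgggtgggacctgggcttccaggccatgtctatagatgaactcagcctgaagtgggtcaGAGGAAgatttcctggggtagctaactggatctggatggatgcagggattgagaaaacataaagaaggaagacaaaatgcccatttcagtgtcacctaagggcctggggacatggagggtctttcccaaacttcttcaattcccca
Cd5l (chr3:87357631-87357880, plus strand): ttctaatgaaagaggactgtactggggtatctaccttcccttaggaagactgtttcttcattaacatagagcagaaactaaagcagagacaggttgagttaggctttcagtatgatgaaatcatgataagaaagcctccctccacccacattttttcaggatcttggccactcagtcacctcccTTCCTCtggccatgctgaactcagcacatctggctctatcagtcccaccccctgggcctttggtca
C1qc (chr4:136893066-136893164, minus strand): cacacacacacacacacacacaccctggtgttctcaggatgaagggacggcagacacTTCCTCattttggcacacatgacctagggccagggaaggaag
C1qb (chr4:136886201-136886450, minus strand): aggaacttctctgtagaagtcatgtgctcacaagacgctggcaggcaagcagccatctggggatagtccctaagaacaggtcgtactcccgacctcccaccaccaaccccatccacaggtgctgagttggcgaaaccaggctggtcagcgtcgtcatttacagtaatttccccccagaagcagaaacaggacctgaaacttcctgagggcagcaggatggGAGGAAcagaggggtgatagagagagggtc
Clec4f (chr6:83656188-83656366, minus strand): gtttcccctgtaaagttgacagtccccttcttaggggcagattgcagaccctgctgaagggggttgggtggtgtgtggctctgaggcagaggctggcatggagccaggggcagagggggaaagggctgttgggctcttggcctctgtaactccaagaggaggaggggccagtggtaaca
Read on both strands over the full 250 bases, GAGGAA was found once in Marco (146 bases before the start), Cd5l (66), C1qc (193), C1qb (30) and Cd68 (225), at 155 and 53 bases in Vsig4, and not in Clec4f or Lyz2. It was found in 23.3% of the 32851 promoter windows of the same length. A match of letters is a description of sequence and was not tested for binding.

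Marco, a scavenger receptor that takes up bacteria and particles, varied most among the 10 genes. Its level was 13.7, 4.19 and 8.36 CPM in the WT corn oil libraries (counts of 31, 6 and 14), 26.3, 21.2 and 13.9 in WT CITCO and 32.8, 20.6 and 45.3 in hCAR/hPXR CITCO. In Car KO/hPXR CITCO it was 14.4, 13.2 and 19.5. The 3 hCAR/hPXR CITCO libraries all lay above the 3 WT corn oil and the 3 Car KO/hPXR CITCO libraries, and the 3 WT CITCO libraries also lay above the WT corn oil libraries, whereas hCAR/hPXR CITCO overlapped with WT CITCO, and Car KO/hPXR CITCO with both WT groups.

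Cd5l, a protein secreted by macrophages, was the gene with the most counts. Its level was 126, 154 and 109 CPM in WT corn oil and 189, 189.7 and 134 in WT CITCO. It was 254, 259 and 169 in hCAR/hPXR CITCO and 193, 147 and 176 in Car KO/hPXR CITCO. The hCAR/hPXR CITCO libraries lay above the WT corn oil libraries and overlapped both other groups, since replicate 3 was lower than the other 2.

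The C1q chains are the recognition unit that starts the classical complement pathway. C1qb was 16.0, 13.3 and 13.7 CPM in WT corn oil, 32.1, 25.3 and 26.4 in WT CITCO, 29.7, 13.7 and 28.0 in hCAR/hPXR CITCO and 13.2, 24.0 and 18.7 in Car KO/hPXR CITCO. The 3 WT CITCO libraries lay above those of WT corn oil and of Car KO/hPXR CITCO without overlap. C1qc was 30.1, 10.5 and 13.1 CPM in WT corn oil, 36.5, 41.1 and 18.1 in WT CITCO, 50.2, 25.2 and 46.2 in hCAR/hPXR CITCO and 23.9, 32.2 and 26.8 in Car KO/hPXR CITCO, and 1 corn oil library was as high as some of every other group. C1qa was 75.3, 53.7 and 57.9 CPM in WT corn oil, 90.4, 71.2 and 71.0 in WT CITCO, 97.8, 90.4 and 68.4 in hCAR/hPXR CITCO and 69.0, 43.0 and 78.8 in Car KO/hPXR CITCO, overlapping in every pair of groups. C1qa took 43.3% to 69.9% of the counts of the 3 chains in a library.

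Clec4f and Vsig4 are the receptors closest to Kupffer cell identity. Clec4f was 47.4, 53.7 and 44.2 CPM in WT corn oil and 64.1, 61.0 and 35.5 in WT CITCO. It was 59.9, 30.9 and 30.5 in hCAR/hPXR CITCO and 34.5, 43.8 and 43.1 in Car KO/hPXR CITCO. The 3 Car KO/hPXR CITCO libraries lay below the 3 of WT corn oil, and all other pairs of groups overlapped. Vsig4 was 24.4, 24.4 and 23.3 CPM in WT corn oil, 43.6, 41.1 and 18.1 in WT CITCO, 26.6, 29.8 and 25.6 in hCAR/hPXR CITCO and 32.6, 33.1 and 21.1 in Car KO/hPXR CITCO. The WT CITCO libraries held both its 2 highest values and its lowest one, and the lowest, replicate 3, was also low in Clec4f.

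Csf1r, the receptor for CSF1 and IL-34, was 29.6 ± 8.69 CPM (mean ± SD, n = 3) in WT corn oil, 39.8 ± 6.41 in WT CITCO, 27.3 ± 9.91 in hCAR/hPXR CITCO and 31.5 ± 7.82 in Car KO/hPXR CITCO. Cd68, a lysosomal glycoprotein of phagocytes, was 5.15 ± 1.31, 7.01 ± 2.28, 6.01 ± 2.23 and 10.2 ± 5.44 CPM in the same order (SD, n = 3 each), with 1 Car KO/hPXR CITCO library at 16.5. Lyz2, the lysozyme of macrophages and other myeloid cells, was 39.2 ± 12.2, 41.7 ± 16.6, 51.1 ± 11.9 and 38.7 ± 2.79 CPM (SD, n = 3 each). For these 3 genes the only separated groups were those of Cd68 in Car KO/hPXR CITCO, at 6.90 CPM or more, and in WT corn oil, at 6.57 or less.

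**Figure D1:**
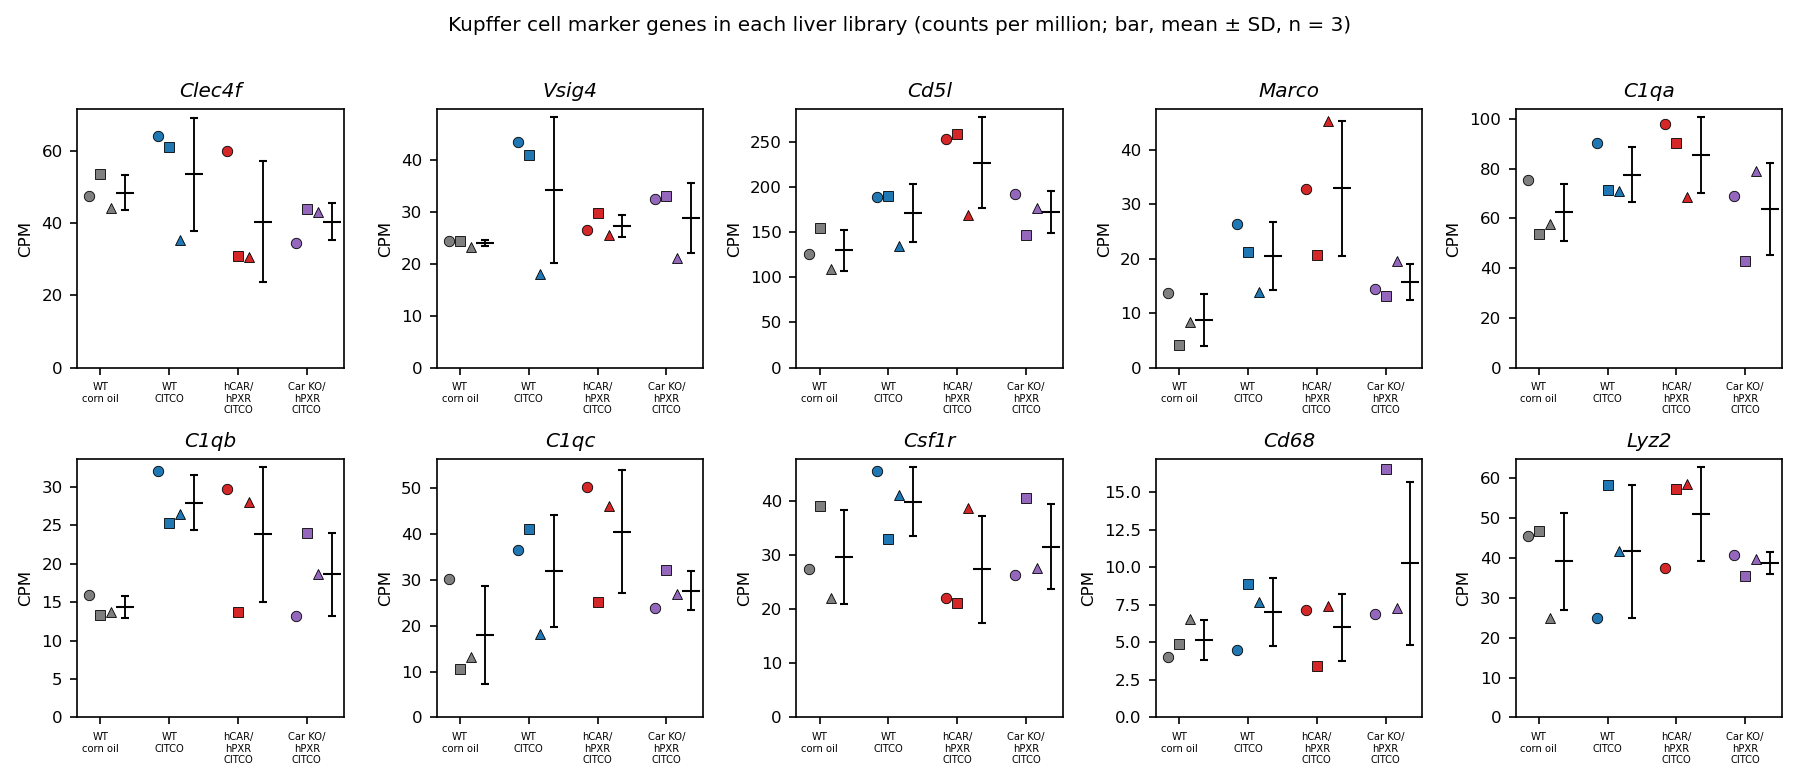
Level of each gene in CPM (y axes from 0) in every library, by group (x axis); circles, squares and triangles are replicates 1, 2 and 3, and the bar beside them is the mean ± SD (n = 3). Marco was at 32.9 ± 12.4 CPM in hCAR/hPXR CITCO against 8.76 ± 4.79 in WT corn oil, while C1qa, C1qc, Csf1r and Lyz2 overlapped in every pair of groups.

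**Figure D2:**
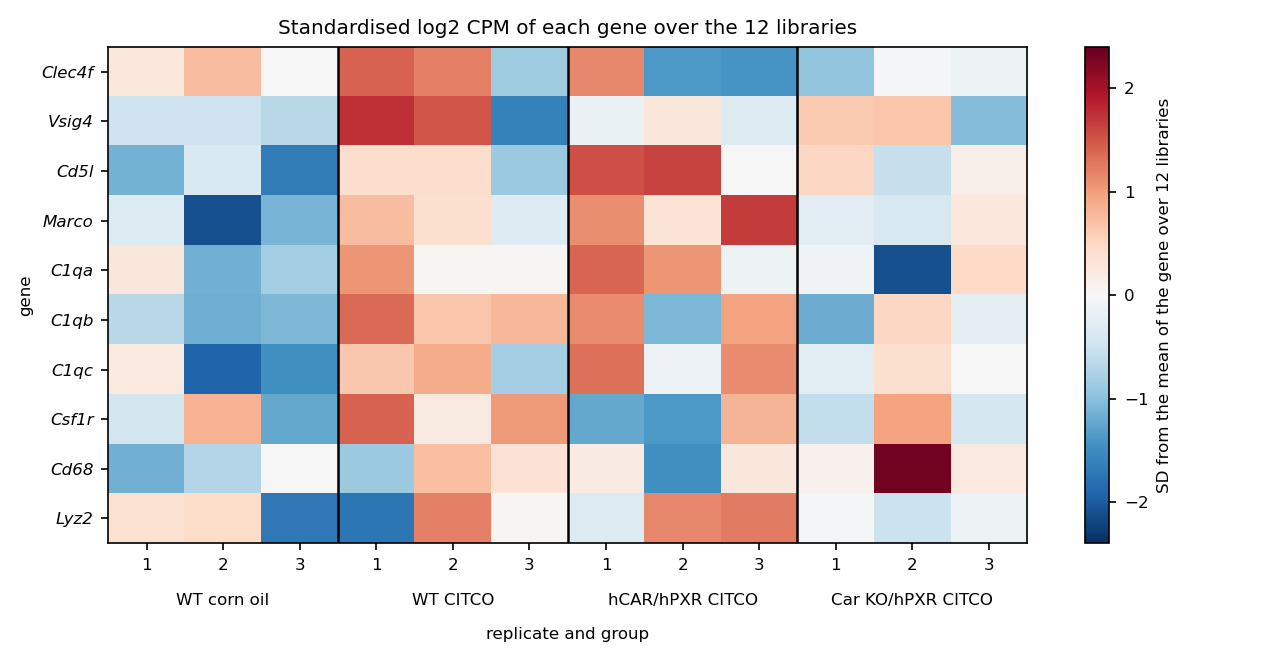
Standardised log2 CPM of each gene (rows) in each of the 12 libraries (columns by group and replicate), as SD from the mean of that gene over the libraries. The WT corn oil libraries were mostly below the mean for Cd5l, Marco, C1qb and C1qc, and the 3 hCAR/hPXR CITCO libraries were high in different genes.

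Taking the group means in order, WT corn oil was lowest for 7 of the 10 genes (Cd5l, Vsig4, Marco, C1qa, C1qb, C1qc and Cd68), and hCAR/hPXR CITCO was highest for 5 (Cd5l, Marco, C1qa, C1qc and Lyz2). The highest mean was between 1.32 times (Clec4f and Lyz2) and 3.76 times (Marco) the lowest. No difference between neighbours in these orders was called for any of the 10 genes. Summed over the 10 genes, the level was 324 to 410 CPM in WT corn oil, 408 to 557 in WT CITCO, 518 to 617 in hCAR/hPXR CITCO and 429 to 459 in Car KO/hPXR CITCO. Cd5l contributed most to this sum in every library.

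A test for any difference among the 4 groups, made on all 8594 genes with the quasi-likelihood test of edgeR and adjusted after Benjamini and Hochberg, called 0 of the 10 genes against 1.42% of all genes tested. Marco came closest (adjusted p = 0.0645), followed by Cd5l (0.167), C1qb (0.358) and C1qc (0.422). At an unadjusted p under 0.05 there were these 4 of 10, against 11.6% of all genes. Limma on the deposited transformed values called 0 and DESeq2 1.

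The effect of CITCO in wild-type mice was read from WT CITCO against WT corn oil. All 10 genes had a fitted level that was higher with CITCO, against 50% of all genes, with a median log2 fold change of 0.45 where the median over all genes was 0.00, but 0 of 10 were called (a fold over 1.5 with a Benjamini-Hochberg adjusted p under 0.05, edgeR), against 0.233% of all genes. DESeq2 and limma also called 0. The largest differences were those of Marco, 2.23-fold (log2 1.16, SE 0.39, adjusted p = 0.332 by edgeR), and C1qb, 1.94-fold (log2 0.95, SE 0.30, adjusted p = 0.285 by edgeR). These were the 2 genes with an unadjusted p under 0.05, which 9.13% of all genes had, and the 2 whose libraries did not overlap, as 14.7% of all genes did. For Clec4f the 95% interval of the log2 fold change was -0.40 to 0.70 and for Lyz2 -0.52 to 0.69, so that a difference was not detectable for them against the spread between these libraries. The 10 genes are partly read from the same cells and are not independent of each other. Without both libraries that stand apart Vsig4 went from 0.51 to 0.82 (adjusted p = 0.190) and Marco to 1.37 (adjusted p = 0.169, edgeR), the median was 0.49, and 0 of 10 were called. Medians of the other lists with at least 3 genes tested lay between -0.03 (hepatocytes) and 0.60 (dendritic cells) in this comparison. The dendritic value rests on the MHC class II genes H2-Aa, H2-Ab1 and H2-Eb1 alone, since Xcr1, Clec9a and Siglech were too low to be tested.

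The humanised and wild-type mice given CITCO were compared as hCAR/hPXR CITCO against WT CITCO. Here 5 genes were higher and 5 lower in the humanised mice, against 51.6% of all genes higher, and the median log2 fold change was -0.04. None of the 10 was called (0 of 10, against 0.407% of all genes, by edgeR's quasi-likelihood test; 0 also by DESeq2 and limma). Cd5l alone had an unadjusted p under 0.05, which 8.81% of all genes had, at a log2 fold change of 0.41 (SE 0.19, adjusted p = 0.560 by edgeR). Marco was at 0.66 (95% interval -0.08 to 1.39) and Csf1r at -0.57 (95% interval -1.16 to 0.02). No gene had libraries that did not overlap between these groups, which 13.7% of all genes had. Without both libraries that stand apart Marco was at 0.17 and Vsig4 at -0.59, the median was -0.18, and 0 were called.

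Car KO/hPXR CITCO was compared with WT CITCO in the same fit. In it 2 genes were higher and 8 lower in Car KO/hPXR mice, against 49.5% of all genes higher, and the median log2 fold change was -0.26. Again 0 of 10 were called, against 0.256% of all genes, with 0 by DESeq2 and limma too, and 0 had an unadjusted p under 0.05, against 9.30% of all genes. C1qb was the only gene whose libraries did not overlap (14.2% of all genes), at a log2 fold change of -0.60 (95% interval -1.25 to 0.04). The interval of Cd5l, the most precisely measured gene, was -0.40 to 0.42. Without both libraries that stand apart the median was -0.42, Vsig4 was at -0.54 where it had been at -0.24, and 0 were called.

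Lines with and without human CAR, both with human PXR, were compared by setting these hCAR/hPXR mice against the Car KO/hPXR mice, all given CITCO. Corn oil libraries of these lines were not analysed here, so a difference between the lines cannot be told apart from a response to CITCO. Of the 10 genes 7 were higher and 3 lower with human CAR, against 51.5% of all genes higher, with a median of 0.38 on the log2 scale. Marco was 2.07-fold higher by the fit (95% interval 1.21 to 3.52, adjusted p = 0.271, edgeR), and it was the gene with an unadjusted p under 0.05 (10.6% of all genes) and with libraries that did not overlap (15.1% of all genes). No gene was called, 0 of 10 against 0.582% of all genes, nor by DESeq2 or limma (0 each). Cd5l was at 0.40 (95% interval -0.01 to 0.81) and Cd68, on few counts, at -0.76 (95% interval -1.78 to 0.27). Without both libraries that stand apart the median was 0.26 and 0 were called.

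Marco was the 1 gene of the 10 that was called in any comparison. It rose 3.53-fold in hCAR/hPXR CITCO against WT corn oil (log2 fold change 1.82, SE 0.38, 95% interval 1.03 to 2.61, adjusted p = 0.0202 by edgeR), a comparison that joins genotype and CITCO and in which 0.989% of all genes were called. Cd5l was 1.76-fold higher (log2 0.81, SE 0.20) and just missed the threshold (adjusted p = 0.0544, edgeR). C1qc was at 1.12 (SE 0.37, adjusted p = 0.209) and C1qb at 0.72 (SE 0.31, adjusted p = 0.395) in the same test. Clec4f was at -0.24 (95% interval -0.79 to 0.32) and Csf1r at -0.13 (95% interval -0.73 to 0.46), so that the gene taken as the hallmark of the cell and the called gene had fitted values of opposite sign. In all, 8 genes were higher and 2 lower (51.3% of all genes higher), 4 had an unadjusted p under 0.05 (10.9% of all genes), and 3 (Cd5l, Vsig4 and Marco) had libraries that did not overlap (16.2% of all genes). The median was 0.41 on the log2 scale, where that of all genes was 0.01.

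The call of Marco rested on few libraries. It was lost without WT corn oil replicate 2 (log2 fold change 1.52, adjusted p = 0.120), WT corn oil replicate 3 (1.76, 0.110), hCAR/hPXR CITCO replicate 1 (1.81, 0.0837) or hCAR/hPXR CITCO replicate 3 (1.54, 0.110), and without both libraries that stand apart (1.54, 0.0817), all by edgeR. It was kept without WT corn oil replicate 1 (2.33, 0.0160) or hCAR/hPXR CITCO replicate 2 (2.07, 0.0117, edgeR). Cd5l, which was not called in the main fit, was called without hCAR/hPXR CITCO replicate 3 (0.98, adjusted p = 0.0248) and without both libraries that stand apart (0.98, 0.0111, edgeR). It was not called without WT corn oil replicate 1 (adjusted p = 0.162), replicate 2 (0.0890) or replicate 3 (0.288, edgeR). Nor was it called without hCAR/hPXR CITCO replicate 1 (adjusted p = 0.228) or replicate 2 (0.171, edgeR).

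Car KO/hPXR CITCO against WT corn oil had the fewest calls of all comparisons, 0.0465% of all genes and 0 of the 10, with 0 by DESeq2 and limma. Here 8 genes were higher and 2 lower, against 50% of all genes higher, with a median log2 fold change of 0.31. No gene had an unadjusted p under 0.05, which 5.60% of all genes had. Cd68 was above (log2 0.98, 95% interval -0.05 to 2.01) and Clec4f below (log2 -0.26, 95% interval -0.83 to 0.31) without overlap of libraries, which 11.6% of all genes showed. Marco was at 0.77 (95% interval -0.08 to 1.62). The comparisons with WT corn oil share the same 3 control libraries, and those with WT CITCO share theirs, so their values are not independent of each other.

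**Figure D3:**
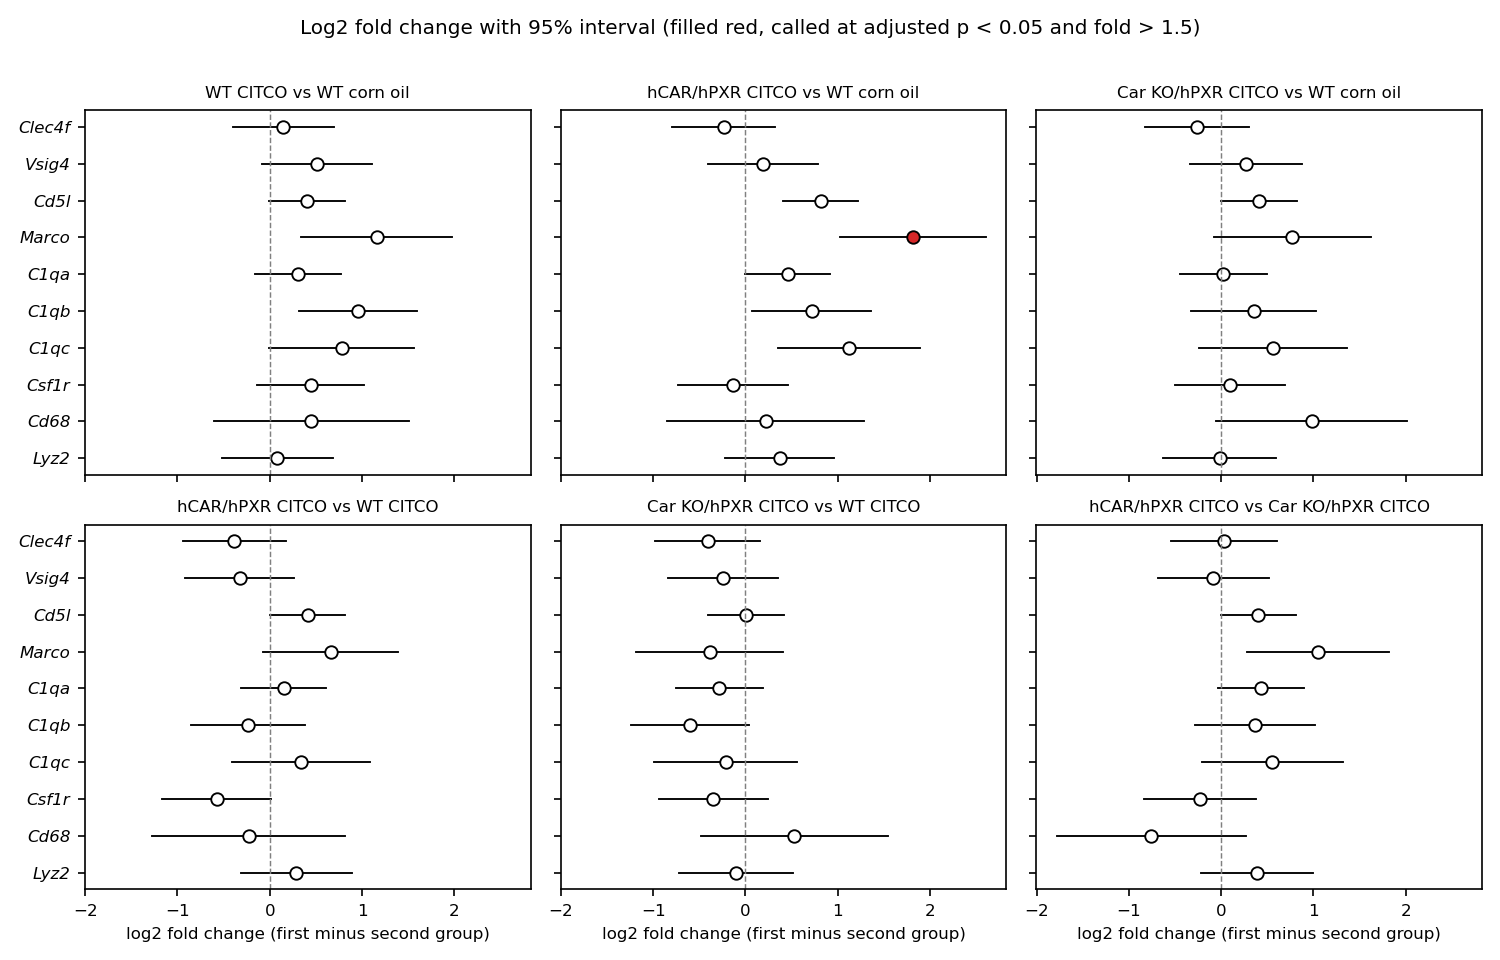
Log2 fold change (x axes, first minus second group) of each gene with its 95% interval in the 6 comparisons of edgeR's fit; a filled red point is a called gene. Marco in hCAR/hPXR CITCO against WT corn oil, at 1.82, is the only filled point, and the intervals of most genes cross 0.

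Other genes that moved with the hCAR/hPXR CITCO libraries are given beside Marco. S100a8, a calcium-binding protein abundant in neutrophils, had counts of 3, 5 and 4 in WT corn oil, 8, 6 and 3 in WT CITCO, 29, 44 and 34 in hCAR/hPXR CITCO and 7, 7 and 6 in Car KO/hPXR CITCO. It was called against WT corn oil (log2 fold change 3.25, adjusted p = 0.00144), WT CITCO (2.54, 0.00961) and Car KO/hPXR CITCO (2.16, 0.0242, edgeR), and its partner S100a9 against WT corn oil (2.63, 0.0387). Without both libraries that stand apart S100a8 was called against WT corn oil (3.08, adjusted p = 0.00458) but not against WT CITCO (2.09, 0.178) or Car KO/hPXR CITCO (1.98, 0.0696), and S100a9 was not called (2.44, 0.103, edgeR). The neutrophil list summed to 34.8 to 49.5 CPM in hCAR/hPXR CITCO, against 3.55 to 6.98 in WT corn oil, 4.87 to 10.9 in WT CITCO and 6.50 to 11.6 in Car KO/hPXR CITCO. Most of the sum in hCAR/hPXR CITCO was S100a8 (mean 22.7 CPM) and S100a9 (mean 14.3), so it mainly repeats both genes. The defining marker Ly6g had counts of 2, 0 and 1 in hCAR/hPXR CITCO and 0 in the other 9 libraries, and Retnlg had 1, 2 and 3 in hCAR/hPXR CITCO and a single count in the other 9. Further genes of the list did not share this pattern. Camp had 0, 0 and 0 in hCAR/hPXR CITCO, against 1, 1 and 0 in WT CITCO. Csf3r had 0, 4 and 0 in hCAR/hPXR CITCO, against 2, 0 and 2 in WT CITCO. Cxcr2 had 1, 0 and 0 against 0, 0 and 1, and Ngp 0, 1 and 0 against 1, 0 and 0, in the same order. The monocyte list summed to 13.16 to 19.98 CPM in hCAR/hPXR CITCO, 6.65 to 11.9 in WT corn oil, 8.98 to 15.3 in WT CITCO, which overlapped with hCAR/hPXR CITCO, and 9.92 to 12.998 in Car KO/hPXR CITCO. The part of these cells in the level of Marco was not tested.

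Genes of the same cell and pathway were taken from lists. Of 14 further Kupffer cell genes 12 were tested and 0 were called in any of the 6 comparisons. Their median log2 fold change was 0.43 for WT CITCO against WT corn oil (8 higher, 4 lower). It was -0.29 for hCAR/hPXR CITCO against WT CITCO (4 higher, 8 lower) and 0.14 for hCAR/hPXR CITCO against WT corn oil (8 higher, 4 lower). Slc40a1, the iron exporter ferroportin, was at 119.7 ± 15.1 CPM in WT corn oil, 168 ± 63.0 in WT CITCO, 90.4 ± 14.5 in hCAR/hPXR CITCO and 123 ± 15.2 in Car KO/hPXR CITCO (SD, n = 3 each), with an adjusted p of hCAR/hPXR CITCO against WT CITCO of 0.103 (edgeR). The study, with DESeq2's Wald test, listed Slc40a1 as significantly lower in hCAR/hPXR than in WT mice, both given CITCO. Fcna, a ficolin that binds microbial sugars, was at 59.5 ± 3.50 CPM in WT corn oil and 67.4 ± 12.7 in hCAR/hPXR CITCO, and Nr1h3, the oxysterol receptor LXR alpha, at 55.2 ± 15.1 in WT CITCO and 60.9 ± 9.77 in Car KO/hPXR CITCO (SD, n = 3 each).

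In the CSF1 receptor axis 4 of 7 genes were tested, Csf1r among them, and 0 were called. Il34, a ligand of CSF1R, had counts of 9, 4 and 5 in WT corn oil and 14, 17 and 6 in hCAR/hPXR CITCO (log2 fold change 1.14, adjusted p = 0.422, edgeR), and the other ligand, Csf1, was too low to be tested. In the classical complement pathway 6 of 6 genes without C1q were tested and 0 called. C3, which coats particles for Vsig4, was at 3684 ± 485 CPM in WT corn oil, 3905 ± 178 in WT CITCO, 4761 ± 443 in hCAR/hPXR CITCO and 3569.6 ± 276 in Car KO/hPXR CITCO, and C4b at 949.8 ± 38.3, 992 ± 115, 1385 ± 181 and 952 ± 145 (SD, n = 3 each). The adjusted p of C4b in hCAR/hPXR CITCO against WT corn oil was 0.171 (edgeR).

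Of 22 general macrophage and phagocyte genes 19 were tested and 0 called, with medians between -0.02 and 0.18 in the 6 comparisons. Their most abundant genes, such as Lamp1 and the cathepsins Ctsd and Ctsb, are also made by hepatocytes. Ctss, a cathepsin of antigen-presenting cells, was at 56.9 ± 4.42 CPM in WT corn oil, 66.8 ± 10.7 in WT CITCO, 70.3 ± 10.4 in hCAR/hPXR CITCO and 65.9 ± 7.15 in Car KO/hPXR CITCO (SD, n = 3 each). Among lists of other cells, 0 of 11 sinusoidal endothelial and 0 of 8 stellate genes tested were called. Of the dendritic list 0 of 3 were called, all of them MHC class II genes. For B cells 0 of 2 and for cholangiocytes 0 of 1 genes tested were called, and no T or NK cell gene was tested. Of the 5 red blood cell genes Alas2 fell in hCAR/hPXR CITCO against WT corn oil (-1.01, adjusted p = 0.0264), and of the 10 hepatocyte genes Fgb, a fibrinogen chain, rose (0.85, adjusted p = 0.0381, edgeR). Neither was called without both libraries that stand apart, with Alas2 at -0.87 (adjusted p = 0.130) and Fgb at 0.71 (adjusted p = 0.129, edgeR). The study, with DESeq2's Wald test, listed the haemoglobin genes Hba-a2 and Hbb-bs as significantly lower in hCAR/hPXR than in WT mice given CITCO. In that comparison 0 red blood cell genes were called here by edgeR.

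**Figure D4:**
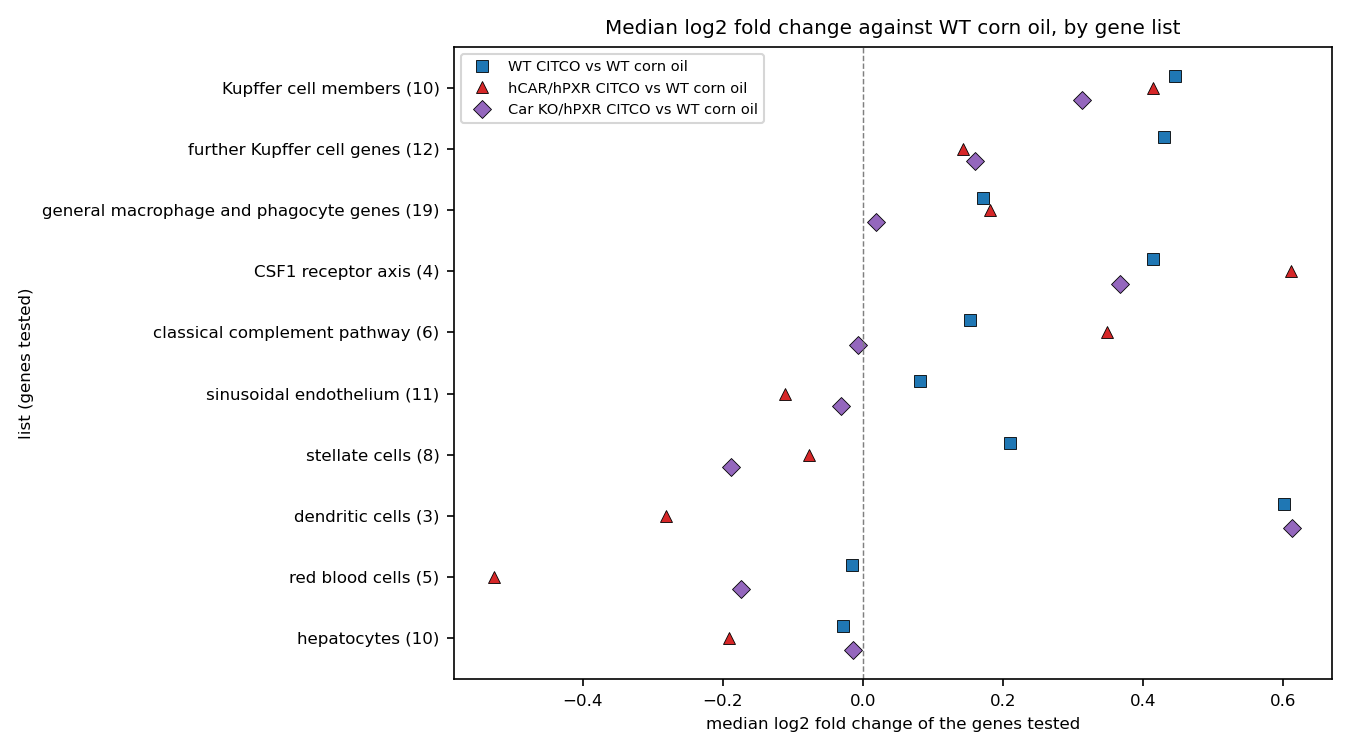
Median log2 fold change against WT corn oil (x axis) of the genes tested in each list of at least 3 (y axis, number tested in brackets), for WT CITCO (squares), hCAR/hPXR CITCO (triangles) and Car KO/hPXR CITCO (diamonds). The 10 Kupffer cell genes were at 0.45, 0.41 and 0.31, the further Kupffer cell genes at 0.43, 0.14 and 0.16, and the sinusoidal endothelial genes at 0.08, -0.11 and -0.03.

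The 10 genes did not vary as one unit across libraries. Over the 12 libraries, 34 of the 45 pairs of genes had a positive Pearson correlation of log2 CPM, with a median of 0.20 and a range from -0.59 (C1qa and Cd68) to 0.90 (Marco and C1qc). With the group means taken off, 24 of 45 were positive and the median was 0.04, while Marco and C1qc stayed at 0.83. These values describe libraries that share depth and processing. Marco had 0.0779 to 0.290 counts for each count of Clec4f in WT corn oil, 0.348 to 0.410 in WT CITCO, 0.547 to 1.49 in hCAR/hPXR CITCO and 0.302 to 0.453 in Car KO/hPXR CITCO, a ratio within a library that does not depend on the scaling.

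The mean of the 10 standardised log2 levels was compared with every other gene tested. Adgre1, which encodes the macrophage marker F4/80, was most like it (Pearson's r = 0.976, Spearman's rho = 0.937 over 12 libraries), also with the group means taken off (0.984), although it had only 3 to 24 counts a library. Its counts were 12, 4 and 3 in WT corn oil, 21, 20 and 7 in WT CITCO, 24, 8 and 14 in hCAR/hPXR CITCO and 6, 7 and 7 in Car KO/hPXR CITCO, and it was not called (adjusted p = 0.332 for WT CITCO against WT corn oil, edgeR). Next came Saa1 (r = 0.919), Ttc7b (0.916), Mcl1 (0.895), Ifitm3 (0.888), Wdr45b (0.887), Cd44 (0.885), Ifitm2 (0.884), Serpina3n (0.884) and C4bp (0.883). With the group means taken off the genes after Adgre1 were Ttc7b, Smarcc2, Sil1, Nudt22, Saa1, Ctnna1, Dffa, Saa2 and Ccdc141, from 0.940 to 0.872. Over the 12 further Kupffer cell genes the median r was 0.23, against 0.00 over all 8584 genes compared. It was slightly lower over 19 general macrophage genes (0.22), and higher over 6 genes of the classical complement pathway (0.48) and 2 neutrophil genes (0.50). With the group means taken off it was 0.29 over the further Kupffer cell genes and 0.09 over the general macrophage genes. It was 0.58 over the complement genes, 0.62 over 5 red blood cell genes and 0.34 over 10 hepatocyte genes.

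Saa1 and Saa2 encode serum amyloid A, an acute phase protein made by hepatocytes. Saa1 had counts of 223, 76 and 30 in WT corn oil, 3578, 2644 and 111 in WT CITCO, 12672, 1858 and 2194 in hCAR/hPXR CITCO and 291, 456 and 100 in Car KO/hPXR CITCO. WT CITCO replicate 3, the corn oil and the Car KO/hPXR CITCO libraries were low in Saa1, and hCAR/hPXR CITCO replicate 1 was highest, as it was for the sum of the 10 Kupffer cell genes. Saa1 was called in WT CITCO (log2 fold change 4.60, adjusted p = 0.0494) and in hCAR/hPXR CITCO against WT corn oil (5.76, adjusted p = 0.00572, edgeR), and also without both libraries that stand apart (5.15, adjusted p = 0.00115, and 6.03, adjusted p = 0.000365). Between the CITCO groups of hCAR/hPXR and Car KO/hPXR, Saa2 was called (4.92, adjusted p = 0.0131) and Saa1 was not (3.87, 0.0587, edgeR). Without both libraries that stand apart Saa1 was called there (4.15, adjusted p = 0.00441) and in Car KO/hPXR CITCO against WT CITCO (-3.27, 0.0197, edgeR). In hCAR/hPXR CITCO against WT CITCO Saa1 was not called (1.16, adjusted p = 0.729, edgeR). The part of Saa1 in the levels of the Kupffer cell genes was not tested.

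Within groups, the variance of the counts was between 1.75 times (Cd68) and 8.43 times (Cd5l) what counting alone gives. The coefficient of variation from edgeR's dispersion estimate of each gene, which is drawn towards that of other genes, was between 0.172 (Cd5l) and 0.301 (Cd68). The quasi-likelihood test does not use this estimate. Marco, at 0.268, was among the more variable of the 10, and its standard error of a log2 fold change (0.38) was about that of C1qc (0.37) and larger than that of Cd5l (0.20). For Cd68 the standard errors lay between 0.48 and 0.51.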

How the data were processed

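Liver RNA was extracted with TRIzol and 3' mRNA libraries were made with the Lexogen QuantSeq kit for Ion Torrent. According to the submitters' processing notes and the methods, the authors checked reads with FastQC 11.7, trimmed them with Trimmomatic 36 and aligned them with STAR 2.5.2 to Ensembl release 89 of GRCm38. The authors deposited expected counts per gene from RSEM 1.3, without normalisation, and 9.34% of the values of genes with any count were not whole numbers. A second table that the authors deposited holds log2-like values from the variance-stabilising transformation of DESeq2.

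Expected counts were rounded. In edgeR 4.0.16 (R 4.3.3) genes were filtered by expression, scaled by TMM and fitted with 1 mean for each group over the 12 libraries; its quasi-likelihood test was applied in 6 comparisons of pairs of groups and 1 of any difference. Genes with a fold over 1.5 and a p under 0.05 after Benjamini-Hochberg adjustment over the 8594 genes tested were called (for any difference, by adjusted p alone). Standard errors and 95% intervals were derived from the F statistic. The script was tested on simulated data. Log2 CPM for correlations used a prior count of 2. The level of 3 counts covers counting error only. Groups came from the sample labels.

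The 10 genes and all lists were chosen with earlier results of these data known. Every gene of the 10 is named; of other lists, up to 4 genes of highest mean level and any called gene, and the 10 genes most like the mean of the 10; the ligand and neutrophil or monocyte genes named for their counts were chosen after their values were seen. A gene that this rule named is not reported here. Alternatives were DESeq2 1.42.0, its size factors, library totals, no filter, a stricter filter, a replicate block, fits of 2 groups, each library left out, and limma 3.58.1 on the deposited transformed values; leaving out the 2 libraries that stand apart together was added after the data were seen. Same-numbered replicates of different groups deviated together with r from -0.06 to 0.07 over 18 pairs, so numbers were not used to pair mice. Coordinates are from GENCODE M21.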

Additional observations from a re-analysis of the deposited data

How the results depend on the processing

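In 5 of the comparisons of 2 groups, 0 of the 10 Kupffer cell genes were called under all 15 alternatives run for each. For hCAR/hPXR CITCO against WT corn oil, where 1 gene was called, 2 were called by DESeq2's Wald test (1.62% of all genes, where edgeR called 0.989%), 2 with library totals in place of TMM (0.977%), 2 with a stricter filter on low counts (1.37%) and 3 without a filter (1.3% of 20067), and leaving out 1 library gave 0 to 2 (0 without WT corn oil replicate 2 or 3 or hCAR/hPXR CITCO replicate 1, and 2 without WT corn oil replicate 1); over all genes the number called lay between 25 and 261. The second gene was Cd5l (adjusted p between 0.00218 and 0.288 over the alternatives), or C1qc without WT corn oil replicate 1, and the third without a filter was C1qc. With the replicate number as a block 2 were called (1.06% of all genes), but the numbers do not pair the mice. Among the 10 genes the block changed no other count of called genes. For any difference among the 4 groups, where 1.42% of all genes were called, 0 of the 10 became 1 with DESeq2's likelihood ratio test (2.67%), 3 without a filter (2.69%), 1 without the 2 libraries that stand apart (1.54%) and 0 to 1 without 1 library (1 without WT corn oil replicate 1, WT CITCO replicate 3 or hCAR/hPXR CITCO replicate 2, with 1.13%, 1.76% and 1.12% of all genes). The median log2 fold change of WT CITCO against WT corn oil moved from 0.45 to 0.26 with limma on the deposited values, a scale that shrinks changes of low genes; the other medians moved by less than the spread between replicates. The causes of the other shifts were not tested.

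Of 894 fold changes of single genes under the alternatives, 31 had the other sign, all of genes that were not called. Without the 2 libraries that stand apart, C1qc in hCAR/hPXR CITCO against WT CITCO was at -0.039 and Cd5l in Car KO/hPXR CITCO against WT CITCO at -0.14. Between the CITCO groups of hCAR/hPXR and Car KO/hPXR, Clec4f was at -0.011 with library totals, -0.019 with the block and -0.040 with limma, and Lyz2 in Car KO/hPXR CITCO against WT corn oil at 0.036 with library totals and 0.014 with limma. Leaving out 1 library at a time gave ranges that crossed 0 for Clec4f (-0.0023 to 0.37) and Lyz2 (-0.23 to 0.35) in WT CITCO against WT corn oil, for C1qb (-0.47 to 0.046) and Cd68 (-0.47 to 0.057) in hCAR/hPXR CITCO against WT CITCO, and for Cd5l (-0.14 to 0.11) and Lyz2 (-0.37 to 0.21) in Car KO/hPXR CITCO against WT CITCO. The same held for Clec4f (-0.40 to 0.20) and Vsig4 (-0.26 to 0.015) between the CITCO groups of hCAR/hPXR and Car KO/hPXR, for Csf1r (-0.44 to 0.097) in hCAR/hPXR CITCO against WT corn oil, and for C1qa (-0.15 to 0.24), Csf1r (-0.12 to 0.33) and Lyz2 (-0.25 to 0.12) in Car KO/hPXR CITCO against WT corn oil.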
